A study of Mus musculus with 26 samples.

Results

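The Hox genes are the 39 protein-coding genes of GENCODE M21 whose symbols are Hoxa, Hoxb, Hoxc or Hoxd followed by a number, out of 53801 genes in the RNA-Seq files. The rule used their names alone and no measured value. The background for peaks at gene starts was the 21938 coding genes that the annotation placed on the assembled chromosomes. In the mouse genome (mm10, the GRCm38 assembly) they lay in 4 clusters. The Hoxa cluster held 11 genes at chr6:52155590-52260880 on the minus strand. The Hoxb cluster held 10 genes at chr11:96194316-96368256, the Hoxc cluster 9 genes at chr15:102921103-103036852 and the Hoxd cluster 9 genes at chr2:74668310-74765142, all on the plus strand.

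The cells were mouse embryonic fibroblasts (MEFs), and all of them were grown in the same medium. WT MEFs carried unmodified ATRX, a chromatin remodeller of the SWI/SNF family that deposits histone H3.3 together with DAXX. ATRXΔRBR MEFs (△RBR in the labels) carried a CRISPR deletion of the RNA-binding region (RBR) in endogenous ATRX and, per the labels, came from colonies picked after brief puromycin selection, so that differences of the deletion and of the clone cannot be told apart. ATRX KD MEFs expressed an shRNA against ATRX and, per the study's methods, were also selected with puromycin. RNA-Seq of polyA-selected RNA was made from 2 libraries of each genotype. CUT&RUN, in which an antibody-tethered nuclease releases the DNA bound by its target, was made for ATRX in WT and ATRXΔRBR and for EZH2 and H3K27me3 in all 3 genotypes, with 2 libraries each, giving 16 peak lists.

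Hox genes encode homeodomain transcription factors that give cells their position along the body axis and the limbs. Within a cluster the genes are numbered by paralog group, and fibroblasts keep much of the Hox pattern of the body site they came from. Silent Hox genes are the textbook targets of Polycomb repressive complex 2 (PRC2), whose catalytic subunit EZH2 trimethylates lysine 27 of histone H3 (H3K27me3), a mark of repressed chromatin. Active Hox genes are kept on by Trithorax group proteins such as the MLL methyltransferases.

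The RNA of the targeted gene was read first. Atrx counts were 8278 and 5195 for WT, 3531 and 4291 for ATRXΔRBR, and 3768 and 11891 for the libraries labelled ATRX KD. Relative to library size Atrx RNA in the labelled knockdown differed from WT by a log2 fold change of -0.15 ± 0.21 (SE, n = 2 libraries per genotype; edgeR adjusted p = 0.605). Since this RNA showed no detectable drop, they are called the libraries labelled ATRX KD. The study reported ATRX KD MEFs to be depleted of ATRX protein, with a western blot, and RNA counts do not measure protein. In ATRXΔRBR the Atrx log2 fold change was -0.63 ± 0.22 (edgeR adjusted p = 0.140), and counts over the whole gene do not check a deletion of one region.

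The libraries carried fibroblast transcripts. Summed over 10 fibroblast markers the level was 9716 and 7439 TPM (a level scaled to transcript length and library size) in WT, 11800 and 11700 TPM in ATRXΔRBR, and 11252 and 11811 TPM in the libraries labelled ATRX KD. Vim, an intermediate filament of mesenchymal cells, was the most abundant, and Thy1, a fibroblast surface marker, had 0 counts in every library. Col3a1, a fibrillar collagen, had 937 and 733 WT counts, 342 and 472 ATRXΔRBR counts, and 4 and 12 counts in the libraries labelled ATRX KD. Thus 8 of the 10 markers stood at 1 TPM or more in every library, and Col3a1 was called lower in both comparisons. In the libraries labelled ATRX KD Pdgfrb and Fn1 were called higher and Twist1 lower as well. The 4 epithelial markers summed to at most 0.91 TPM, with Cdh1 the most abundant and Krt18 at 0, and Cdh1, with 11 and 10 WT counts and 1 and 2 in the libraries labelled ATRX KD, was called lower there (edgeR adjusted p = 0.0203). The endothelial markers Pecam1, Cdh5 and Kdr summed to 0.98 and 1.64 TPM in WT, 5.22 and 3.01 TPM in ATRXΔRBR, and 0.17 and 0.05 TPM in the libraries labelled ATRX KD, with Cdh5 at 0 in all 6, and Pecam1 was called higher in ATRXΔRBR and lower in the libraries labelled ATRX KD. Of the 3 blood markers, Cd68 gave most of sums between 4.55 and 12.1 TPM and Adgre1 was at 0. The 3 neural markers summed to 91.9 and 77.7 TPM in WT, 78.8 and 68.4 TPM in ATRXΔRBR, and 39.6 and 42.8 TPM in the libraries labelled ATRX KD. Nes, an intermediate filament of progenitor cells, had the highest level and was not called. Sox2, a transcription factor of neural and pluripotent cells, stood at 43.9 and 37.1 TPM in WT, 18.7 and 17.5 TPM in ATRXΔRBR, and 1.1 and 0.55 TPM in the libraries labelled ATRX KD, and was called lower in both comparisons (edgeR adjusted p = 0.0102 and 8.88e-05). The 3 pluripotency markers summed to at most 0.35 TPM, with Pou5f1 and Dppa5a at 0. The part of these differences in the Hox results was not tested, and in bulk libraries fewer cells of a type and less RNA per cell cannot be told apart.

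Total estimated counts were 13320635 and 11856636 for WT, 9574174 and 13694801 for ATRXΔRBR, and 9051692 and 21723647 in the libraries labelled ATRX KD. A gene with no count could still have had up to 3 counts, which was between 0.138 and 0.331 CPM (read counts scaled to library size) depending on the library. The peak lists do not record the read depth of each CUT&RUN library, so the strength of a peak was not compared between lists.

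The 4 clusters were rich in CG dinucleotides, the sequence feature of CpG islands to which Polycomb proteins are known to be drawn. The Hoxa, Hoxb, Hoxc and Hoxd clusters held 29.9, 20.9, 21.5 and 28.0 CG per kb, against 8.26 per kb over the assembled chromosomes. They were poor in repeats, with 13.4%, 24.6%, 15.9% and 14.4% of bases masked as repeats, against 36.4% of the assembled chromosomes. Of the 39 genes, 22 had a promoter of 250 bases before to 50 bases after the start in the RefSeq table (GRCm38.p6), 24 promoters in all. These held a median of 14.5 CG, against 7 over all 32851 promoters of the table, and 70.8% of them held 10 CG or more, against 43.5%. The promoters of Hoxa7, Hoxa9 and Hoxa10 are shown here because the end of the H3K27me3 domain in the Hoxa cluster lay among them. CG is in capitals, and all are on the minus strand, written 5′ to 3′.
Hoxa7, chr6:52218524-52218823: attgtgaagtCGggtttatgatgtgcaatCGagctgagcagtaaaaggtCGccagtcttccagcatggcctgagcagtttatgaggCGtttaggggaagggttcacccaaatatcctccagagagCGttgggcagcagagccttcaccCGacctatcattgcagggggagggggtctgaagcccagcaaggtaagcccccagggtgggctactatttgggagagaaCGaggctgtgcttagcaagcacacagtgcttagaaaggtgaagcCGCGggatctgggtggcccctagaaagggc
Hoxa9, chr6:52227321-52227620: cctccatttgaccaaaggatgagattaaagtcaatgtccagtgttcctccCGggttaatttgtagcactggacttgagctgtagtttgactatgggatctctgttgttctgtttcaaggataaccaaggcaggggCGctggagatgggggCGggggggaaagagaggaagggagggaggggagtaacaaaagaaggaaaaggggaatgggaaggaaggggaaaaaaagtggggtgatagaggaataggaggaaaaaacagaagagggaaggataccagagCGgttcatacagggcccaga
Hoxa10 nearer Hoxa9, chr6:52234890-52235189: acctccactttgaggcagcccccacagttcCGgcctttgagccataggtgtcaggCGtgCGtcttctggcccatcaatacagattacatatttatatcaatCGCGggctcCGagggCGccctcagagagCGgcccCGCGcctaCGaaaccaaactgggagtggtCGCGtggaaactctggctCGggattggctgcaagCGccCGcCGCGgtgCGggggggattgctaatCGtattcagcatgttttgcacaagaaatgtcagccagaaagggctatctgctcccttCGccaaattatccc
Hoxa10 nearer Hoxa11, chr6:52240805-52241104: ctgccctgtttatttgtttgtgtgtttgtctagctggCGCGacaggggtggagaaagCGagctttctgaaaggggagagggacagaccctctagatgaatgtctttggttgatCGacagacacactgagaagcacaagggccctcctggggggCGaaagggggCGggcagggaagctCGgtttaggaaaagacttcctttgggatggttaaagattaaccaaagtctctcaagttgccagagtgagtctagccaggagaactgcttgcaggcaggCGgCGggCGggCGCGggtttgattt
The motif was the 2 letters CG, which read the same on both strands. Hoxa7 held 9 CG and Hoxa9 4, and 45.8% and 68.6% of the promoters in the table held at least as many. The Hoxa10 promoters held 21 and 12 CG, a number that 24.8% and 39.6% of them reached.

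Hox RNA came from the Hoxa and Hoxb clusters. At 1 TPM or more in both libraries, 17 of 39 Hox genes were detected in WT, 17 in ATRXΔRBR and 16 in the libraries labelled ATRX KD. In WT these were 9 of 11 Hoxa genes and 8 of 10 Hoxb genes, and none of the 18 Hoxc and Hoxd genes. Hoxc genes together had 0 and 1 counts in the WT libraries, and Hoxd genes 1 and 1. Hoxa11, Hoxa13 and Hoxb1 had 0 counts in all 6 libraries. The Hox genes summed to 412 and 375 TPM in WT, 413 and 449 TPM in ATRXΔRBR, and 427 and 474 TPM in the libraries labelled ATRX KD, and the Hoxb cluster gave most of it in each library.

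**Figure D1:**
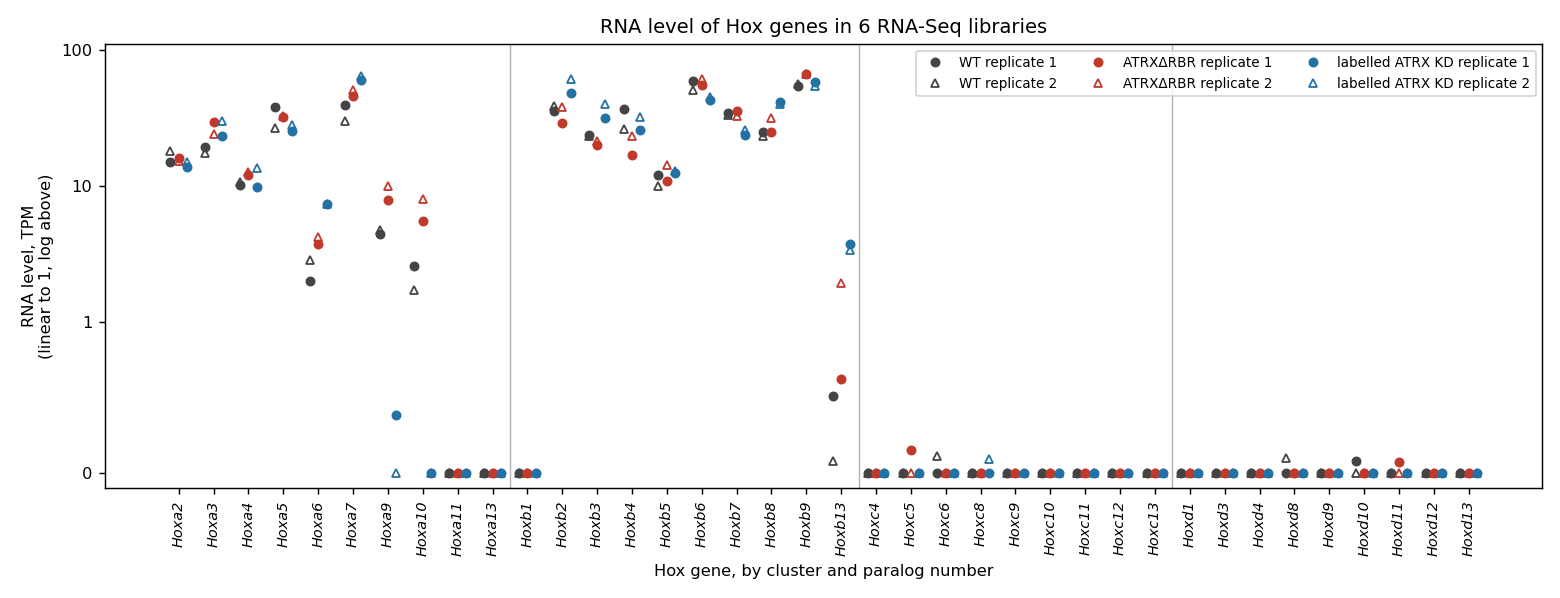
RNA level (TPM, axis linear up to 1 and logarithmic above) of Hox genes in each of 6 RNA-Seq libraries, by cluster and paralog number; colours give the genotype and symbols the replicate. Detected genes lie in Hoxa and Hoxb, and the 18 Hoxc and Hoxd genes lie at or near 0 in every library.

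Hoxb9, one of the posterior genes of its cluster, had the highest mean TPM over the 6 libraries of any Hox gene, a mean of 58.9 TPM. In WT it and Hoxb6 differed by less than their replicates, at means of 54.9 and 54.6 TPM, and in the libraries labelled ATRX KD Hoxa7 was above it, at 61.4 against 55.99 TPM. Hoxb9 stood at 53.8 and 56.1 TPM in WT, 65.9 and 66.0 TPM in ATRXΔRBR, and 58.1 and 53.8 TPM in the libraries labelled ATRX KD. The next highest means were those of Hoxb6 at 52.0 TPM, Hoxa7 at 48.0 TPM and Hoxb2 at 41.5 TPM. Hoxb8, Hoxb7 and Hoxa5 followed at 30.8, 30.7 and 30.3 TPM, which differed by less than their own replicates. The eighth was Hoxb4 at 26.6 TPM. Among the genes of low level stood Hoxa10 at 2.96 TPM, Hoxa9 at 4.54 TPM and Hoxa6 at 4.56 TPM.

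In WT cells the clusters differed in how much of them lay under PRC2 peaks. The whole Hoxc cluster lay under a single EZH2 peak of 135 and 131 kb and a single H3K27me3 peak of 251 and 290 kb in the 2 libraries. These were the widest peaks of their lists. In ATRXΔRBR the widest peak of each of the 4 EZH2 and H3K27me3 lists again lay over Hoxc, at 112 and 130 kb for EZH2 and 257 and 258 kb for H3K27me3. The Hoxd cluster was covered to 60.9% and 59.7% by EZH2 and to 87.8% and 92.3% by H3K27me3. The Hoxa cluster was covered to 43.8% and 41.02% by EZH2 and to 40.3% and 40.3% by H3K27me3, and the Hoxb cluster to 30.04% and 29.2%, and 38.2% and 38.1%. Over the 4 clusters together the covered share was 55.0% ± 0.79 for EZH2 and 63.4% ± 0.61 for H3K27me3 (SD, n = 2), against 0.665% and 0.557% of the genome for EZH2 and 3.77% and 4.34% for H3K27me3 in the same lists.

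**Figure D2:**
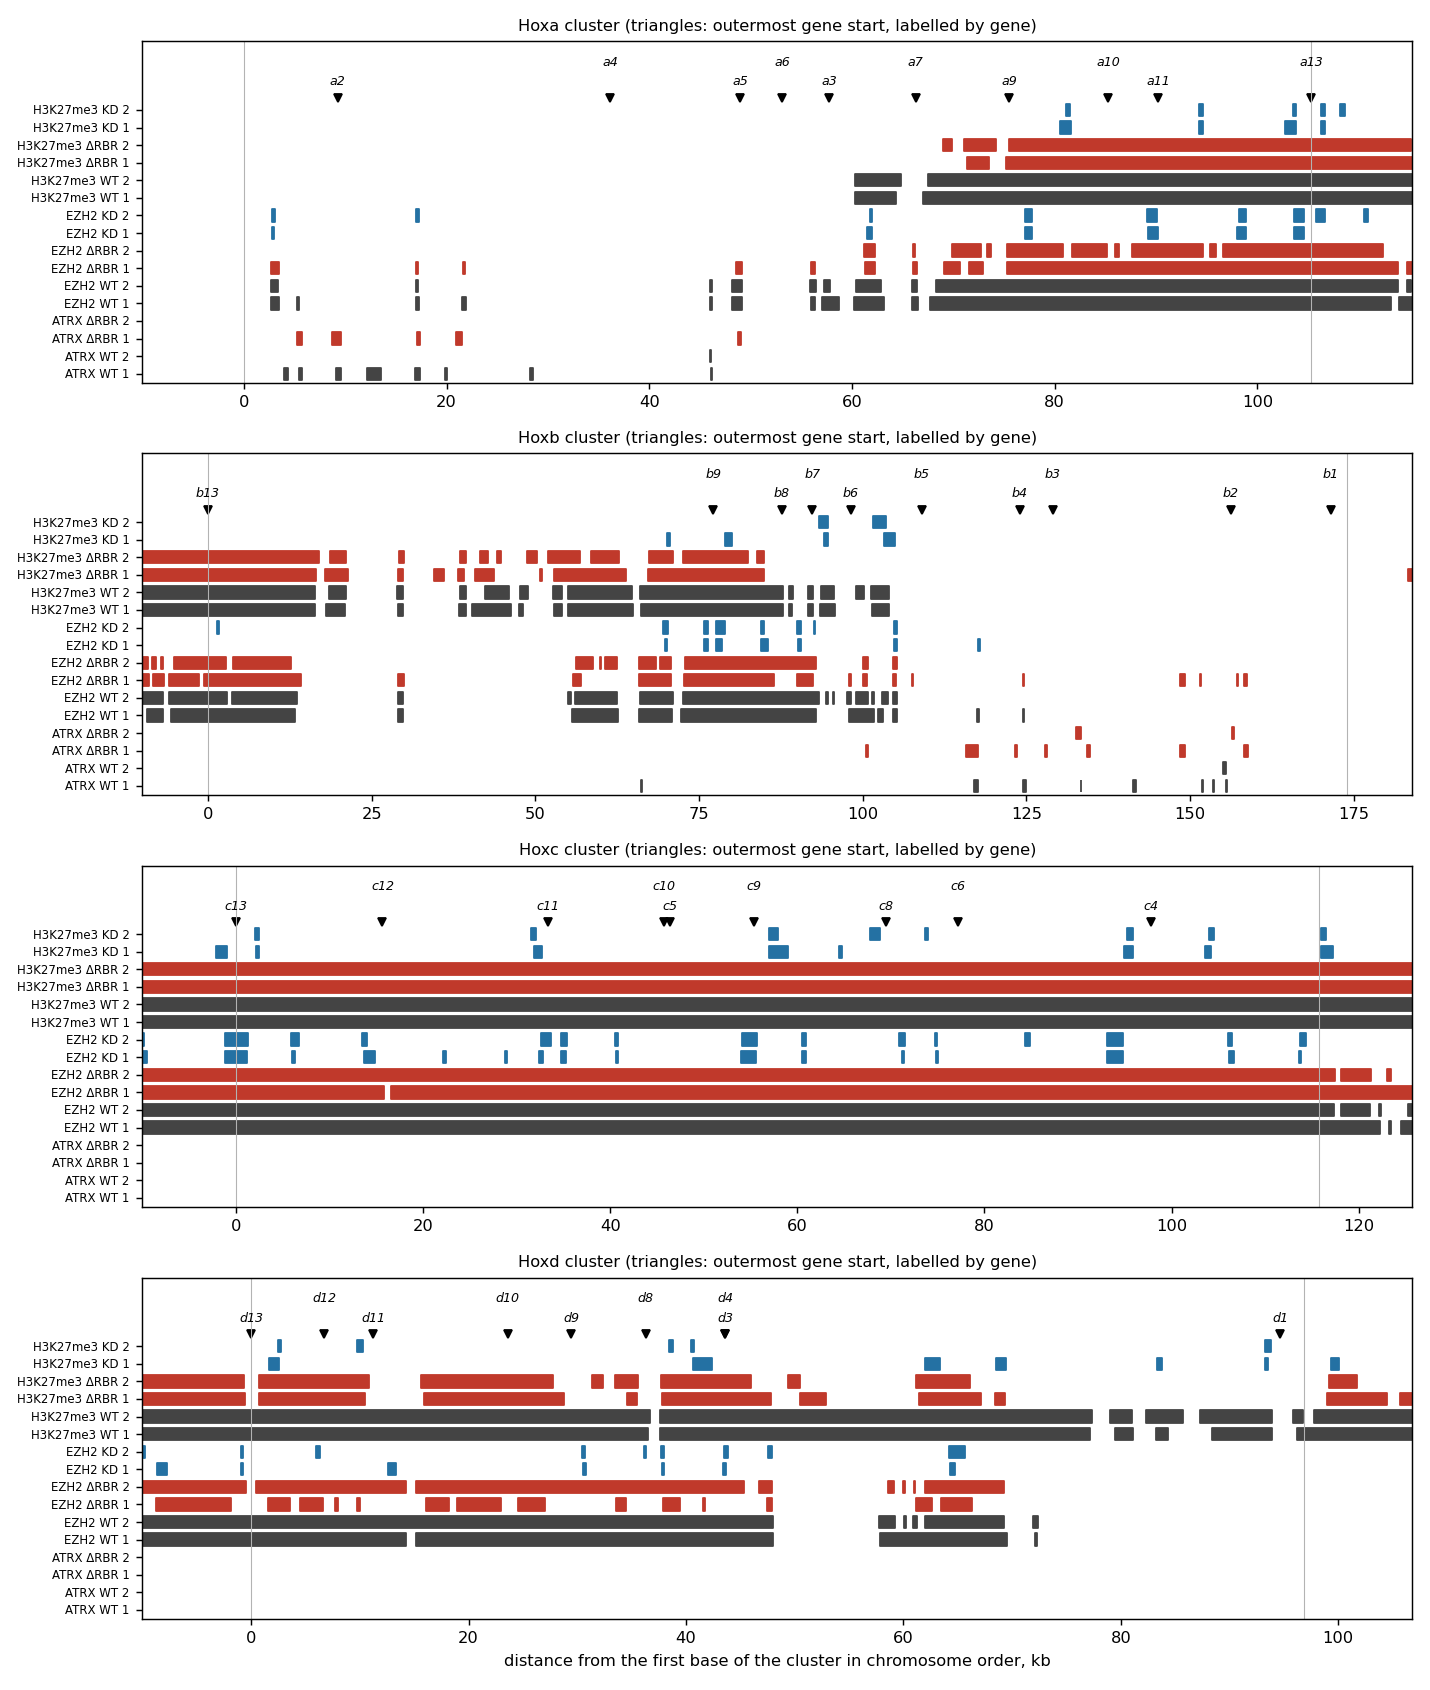
Peaks of ATRX, EZH2 and H3K27me3 along each Hox cluster, 1 row per library; the horizontal axis is the distance in kb from the first base of the cluster in chromosome order, grey lines mark its first and last base, and triangles outermost gene starts. WT is dark grey, ATRXΔRBR red and the libraries labelled ATRX KD blue; wide peaks cover Hoxc in WT and ATRXΔRBR, and only short peaks lie there in the libraries labelled ATRX KD.

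Within Hoxa and Hoxb the part under H3K27me3 peaks was the posterior end. In Hoxa the wide H3K27me3 peak ran from Hoxa9 past Hoxa13, and no H3K27me3 peak lay within 2 kb of the start of Hoxa2 to Hoxa6 in either WT library. In Hoxb the windows of Hoxb13 and Hoxb9 lay whole under H3K27me3 peaks, that of Hoxb8 to 66.0% and 71.6%, and Hoxb1 to Hoxb5 had no H3K27me3 peak at their starts. Of the 39 outermost gene starts, 27 and 28 had an H3K27me3 peak within 2 kb and 31 and 30 an EZH2 peak in the WT libraries, or 69.2% and 71.8%, and 79.5% and 76.9%. Over all protein-coding genes the shares in the same lists were 15.6% and 16.4% for H3K27me3, and 50.6% and 46.8% for EZH2. Neighbouring windows overlap and share peaks, so the starts are not independent of each other.

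Most undetected Hox genes lay under the mark and most detected ones did not, with exceptions on both sides. Of the 22 Hox genes not detected in WT, 19 had the whole window under H3K27me3 peaks in both WT libraries, and of the 17 detected genes 3 did. These 3 were Hoxa9, Hoxa10 and Hoxb9. Hoxb1, with 0 counts, had no EZH2 or H3K27me3 peak at its start in any list. Hoxd1, also at 0 counts, had 42.3% and 51.9% of its window under H3K27me3 peaks in WT and no EZH2 peak. These are descriptions over genes that share domains, and no test was made of them.

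**Figure D3:**
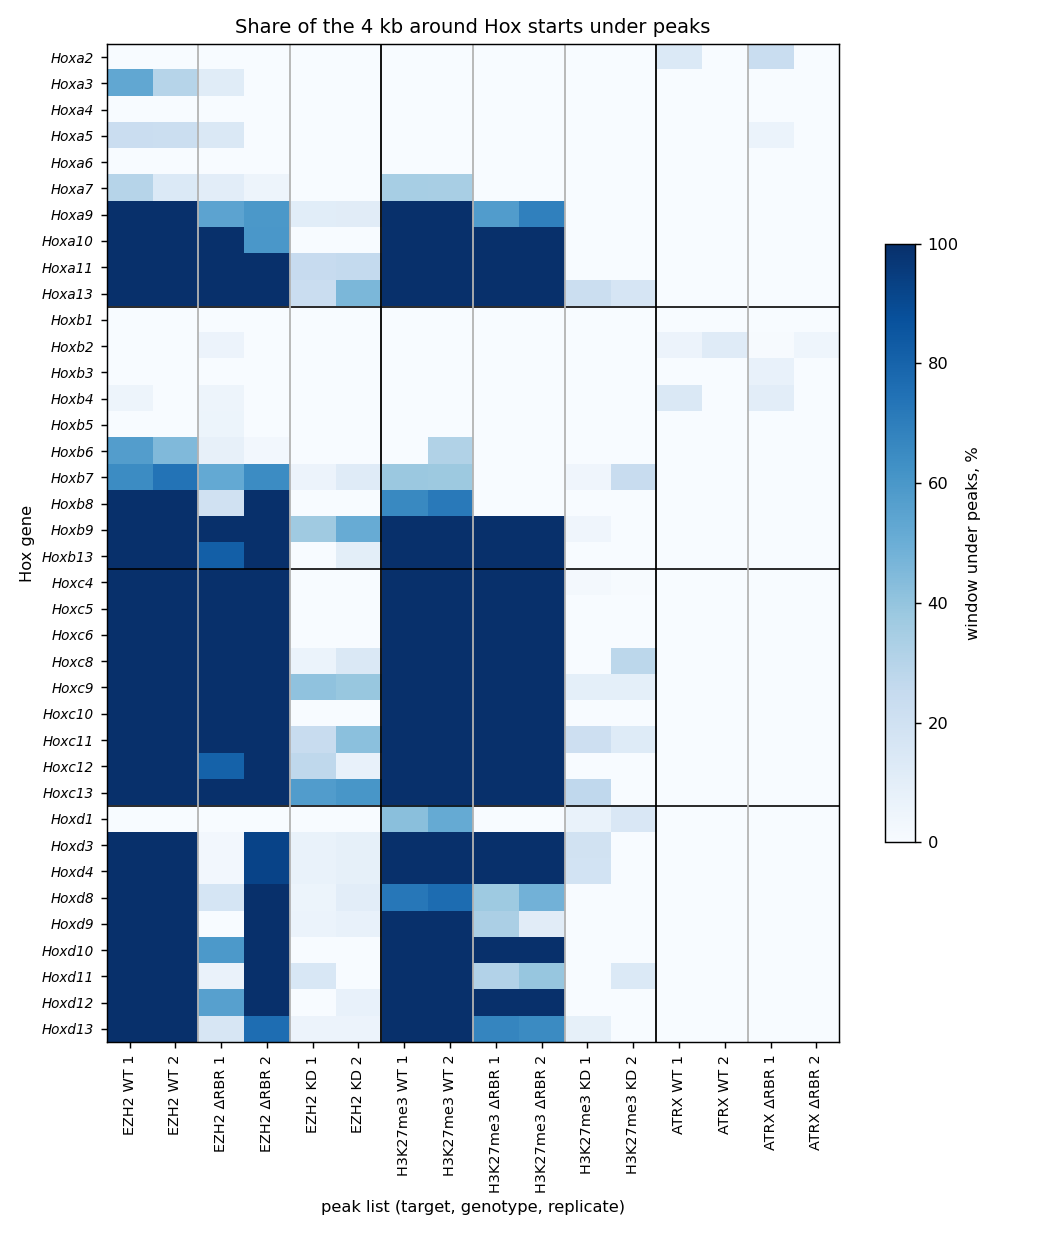
Share of the window of 2 kb on each side of the outermost start of Hox genes that lies under peaks (%), 1 column per peak list and 1 row per gene. Hoxa7, Hoxb7, Hoxb8 and Hoxd1 are at 0% under H3K27me3 in both ATRXΔRBR lists, and in the libraries labelled ATRX KD no window is above 60.2%.

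In ATRXΔRBR less of Hoxa, Hoxb and Hoxd lay under H3K27me3 peaks, and Hoxc was covered whole as in WT. The share of the 4 clusters under H3K27me3 peaks was 49.96% and 48.3% in ATRXΔRBR against 62.9% and 63.8% in WT, so the genotypes did not overlap. In the same lists the share of the whole genome under H3K27me3 peaks was higher in ATRXΔRBR, at 5.41% and 4.65% against 3.77% and 4.34%. With 2 libraries against 2 an exact permutation test over libraries cannot go below a two-sided p of 0.333, so each difference is set beside the spread of its replicates. The largest was in Hoxd, where H3K27me3 covered 43.9% and 40.97% of the cluster in ATRXΔRBR against 87.8% and 92.3% in WT. In Hoxa it was 30.6% and 32.2% against 40.3% and 40.3%, and in Hoxb 31.8% and 27.7% against 38.2% and 38.1%.

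For EZH2 both ATRXΔRBR libraries were below both WT libraries in Hoxa, Hoxb and Hoxd, and Hoxc was at 99.3% and 100% against 100% and 100% in WT. EZH2 covered 34.7% and 28.6% of Hoxa in ATRXΔRBR against 43.8% and 41.02% in WT, and 23.2% and 24.0% of Hoxb against 30.04% and 29.2%. In Hoxd the ATRXΔRBR libraries differed from each other, at 21.6% and 55.1%, against 60.9% and 59.7% in WT. The second ATRXΔRBR EZH2 list covered 0.344% of the genome, less than the first at 0.680% and the WT lists at 0.665% and 0.557%. Yet the first ATRXΔRBR list had the lower share in Hoxd.

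**Figure D4:**
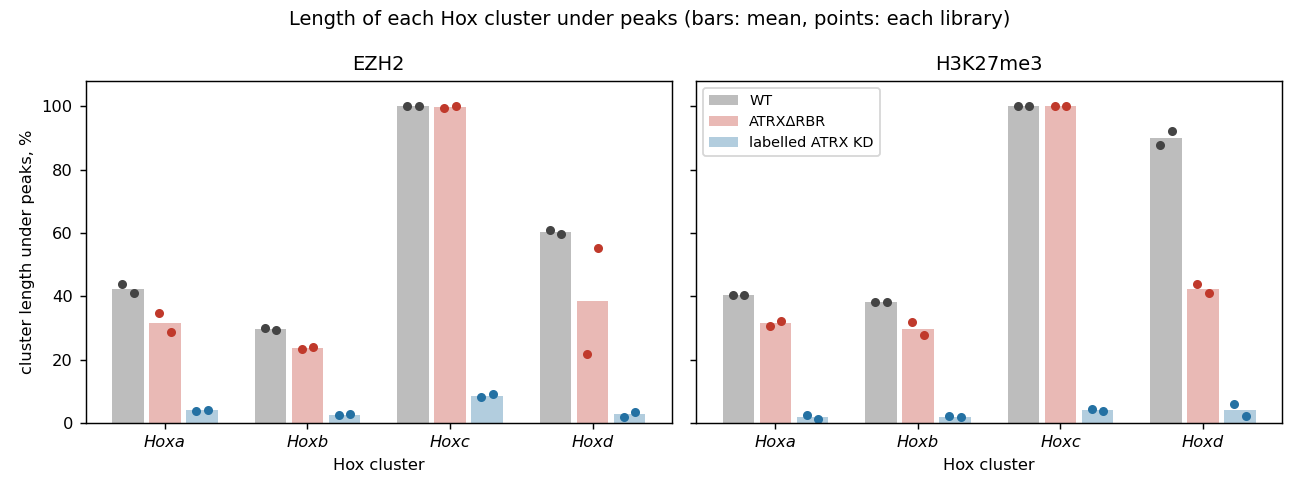
Share of the length of each Hox cluster under EZH2 peaks (left) and H3K27me3 peaks (right), in %; bars give the mean of 2 libraries and points each library. H3K27me3 covered 87.8% and 92.3% of Hoxd in WT and 43.9% and 40.97% in ATRXΔRBR, and 100% of Hoxc in both.

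By gene, 9 of 39 windows had less of their length under H3K27me3 peaks in both ATRXΔRBR libraries than in either WT library, and none had more. Over all protein-coding genes 7.93% of windows were lower by this rule and 5.99% higher. The 9 were Hoxa7, Hoxa9, Hoxb7, Hoxb8, Hoxd1, Hoxd8, Hoxd9, Hoxd11 and Hoxd13. Hoxa7, Hoxb7, Hoxb8 and Hoxd1 had a peak at their start in both WT libraries and in neither ATRXΔRBR library, where 4.30% of all coding genes did. Only a start with a peak in both WT libraries can be lower or lose it. The shares of coding genes given here also count those without such a peak. In WT an H3K27me3 peak lay at 27 and 28 of the 39 Hox starts and at 3419 and 3607 of the 21938 coding starts. Of the coding starts 1739 were lower and 943 lost the peak from both libraries. By RefSeq promoter, those of Hoxa7, Hoxb8, Hoxd4, Hoxd8, Hoxd9, Hoxd11 and Hoxd13 lay whole under H3K27me3 peaks in both WT libraries. None of their bases did in either ATRXΔRBR library. Peaks were counted over Hox promoters alone, so no share of all promoters can be set beside this or the EZH2 promoter result below. The promoters of Hoxa9, Hoxa10, Hoxa11, Hoxa13, Hoxc4, Hoxd3, Hoxd10 and Hoxd12 lay whole under them in the libraries of both genotypes. For Hoxa7 the share of the window under H3K27me3 peaks was 34.5% and 34.3% in WT and 0% and 0% in ATRXΔRBR. Hoxa7 and the other members of its paralog group help set identity of the trunk. Hoxa9 went from 100% and 100% to 57.5% and 68.8%, Hoxd9 to 33.5% and 11.1%, Hoxd11 to 31.2% and 39.1%, and Hoxd13, the most posterior Hoxd gene, to 66.8% and 65.0%. For EZH2 8 windows were lower and none higher, against 9.32% and 0.538% of all coding genes, namely Hoxa3, Hoxa5, Hoxa7, Hoxa9, Hoxb6, Hoxd3, Hoxd4 and Hoxd13, of which Hoxd3 and Hoxd4 share a start. Within 2 kb, no Hox start lost an EZH2 peak from both libraries or gained one in both, where 1.19% and 0% of coding genes did. None gained an H3K27me3 peak, where 3.63% did. Over RefSeq promoters the EZH2 result differed. The promoters of Hoxa3 and Hoxd13 lay whole under EZH2 peaks in both WT libraries, with 0 of 300 bases under them in both ATRXΔRBR libraries. No Hox promoter gained an EZH2 peak in both.

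The anterior end of the wide Hoxa domain lay farther from Hoxa7 in ATRXΔRBR for both targets. The wide H3K27me3 peak, taken as a peak of at least 5 kb, began at position 52222550 and 52223052 of chromosome 6 in WT and at 52230803 and 52231091 in ATRXΔRBR. The start of the wide peak thus lay 8.15 kb farther from Hoxa7 in ATRXΔRBR, where the 2 libraries of a genotype differed by at most 0.502 kb. For EZH2 it lay 7.34 kb farther, with replicates 0.567 kb apart in WT and 0.016 kb in ATRXΔRBR. The stretch between the starts holds nearly all of the Hoxa9 gene, and narrower peaks remained inside it in ATRXΔRBR. The Hoxa9 promoter printed above lay whole under H3K27me3 and EZH2 peaks in the WT and ATRXΔRBR libraries, and the Hoxa7 promoter lay whole under H3K27me3 peaks in both WT libraries and in none of the ATRXΔRBR libraries. Of the Hoxa7 promoter 233 of 300 bases lay under an EZH2 peak in the first WT library, and none in the second or in ATRXΔRBR. Both Hoxa10 promoters lay whole under H3K27me3 peaks in all WT and ATRXΔRBR libraries and under EZH2 peaks in the same libraries, except that the promoter nearer Hoxa11 had no EZH2 peak in the second ATRXΔRBR library. The outermost starts of Hoxa7 and Hoxa9, on which their windows were centred, lay 3281 and 3719 bp from the RefSeq starts of these promoters. The rule of 5 kb was chosen after the lists were seen, and with peaks of at least 2 kb the distance was 10.9 kb for H3K27me3, with replicates up to 0.366 kb apart, and 12.3 kb for EZH2, with the ATRXΔRBR replicates 5.43 kb apart. In Hoxb the distance depended on the rule. For H3K27me3 it was 4.21 kb with peaks of at least 5 kb and 20.4 kb with peaks of at least 2 kb, with replicates up to 2.44 kb apart under both. For EZH2 the genotypes overlapped under the 5 kb rule, while under the 2 kb rule they did not, at a distance of 4.83 kb with the WT replicates 8.42 kb apart.

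In ATRXΔRBR the RNA of 1 Hox gene, Hoxa10, passed the test. Of the 18 Hox genes that passed the filter on low counts, 1 was called higher and 0 lower, against 2.79% and 4.07% of the 16334 genes tested (6.85% in all). An unadjusted p under 0.05 was found for 5 of them, against 20.6% of all genes. The other 21 totalled 10 counts or fewer. The median log2 fold change of the 18 was 0.05, against -0.02 over all genes tested. The groups did not overlap for 7 genes that were higher and 3 that were lower in ATRXΔRBR, beside 23.6% and 25.9% of all genes. On the TPM scale, with a pseudocount of 1, the median of all genes lay at 0.04 in this comparison and at 0.16 in that of the libraries labelled ATRX KD, and that of the Hox genes at 0.19 and 0.09.

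Hoxa10, a posterior gene with roles in limb, uterus and blood development, had 32 and 19 WT counts and 45 and 101 ATRXΔRBR counts, or 2.58 and 1.72 TPM against 5.46 and 8.01 TPM. Both ATRXΔRBR libraries lay above both WT libraries. Its RNA rose 3.01-fold, by a log2 fold change of 1.59 ± 0.37 (SE, edgeR adjusted p = 0.0434). Without the second ATRXΔRBR library the log2 fold change was 1.24 and the call was lost (edgeR adjusted p = 0.161).

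Its neighbour Hoxa9, a posterior gene best known from blood progenitors, had 74 and 72 WT counts and 100 and 151 ATRXΔRBR counts. These did not overlap relative to library size, and the log2 fold change of 0.89 ± 0.23 missed the threshold (edgeR adjusted p = 0.0647). Hoxb13, a gene of the tail bud and prostate, had 8 and 1 WT counts and 6 and 30 ATRXΔRBR counts, at a log2 fold change of 2.01 ± 0.85 (edgeR adjusted p = 0.231). Without 1 library this value lay between 0.83 and 3.98, and Hoxb13 was called higher without the first WT library, without the first ATRXΔRBR library and without a filter. The first ATRXΔRBR library was close to the first WT library, and the second stood above both. The 8 Hox genes of highest level did not pass the test. Among them the value farthest from 0 was that of Hoxb4, with a log2 fold change of -0.71 ± 0.28 (edgeR adjusted p = 0.197), and it was called lower without the second WT library, without the second ATRXΔRBR library and without a filter. Hoxa7 was at 0.39 ± 0.23 (edgeR adjusted p = 0.407) and Hoxb9 at 0.20 ± 0.17 (edgeR adjusted p = 0.570). Hoxa5, Hoxb2, Hoxb6, Hoxb7 and Hoxb8 lay between -0.21 and 0.03, and on the TPM scale Hoxa5, Hoxb7 and Hoxb8 turned from below to above 0. Hoxa2, Hoxa3, Hoxa4, Hoxb3 and Hoxb5 lay between -0.21 and 0.46, and Hoxa6 at 0.67 ± 0.44, and none of them was called.

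**Figure D5:**
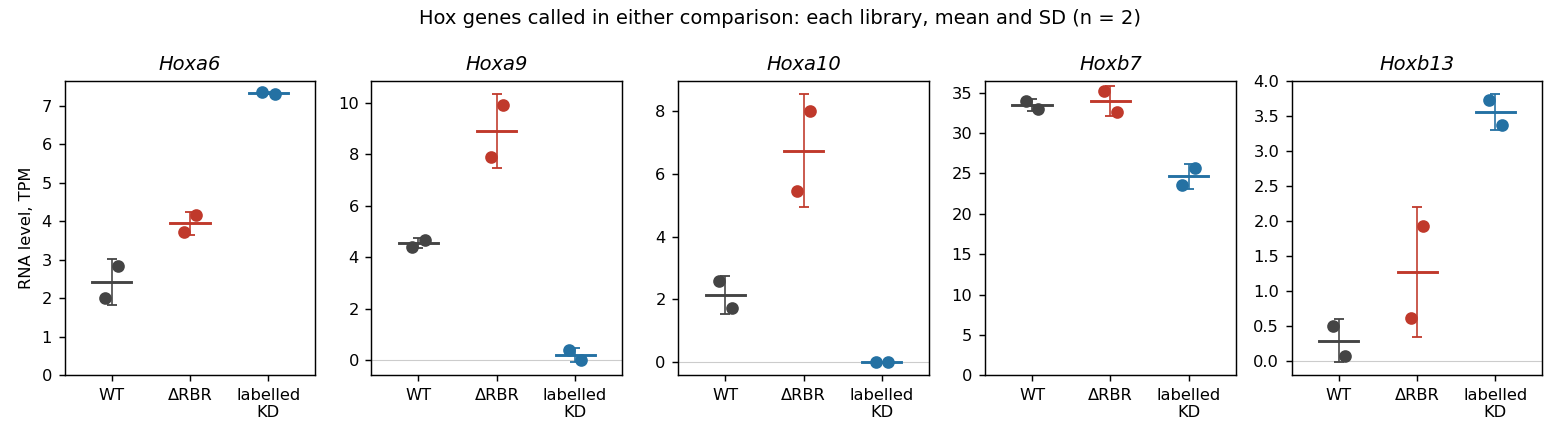
RNA level (TPM) of the 5 Hox genes called in either comparison, with a point for each library, the mean as a line and the SD as error bars (n = 2 per genotype). Hoxa9 and Hoxa10 are highest in ATRXΔRBR and at or near 0 in the libraries labelled ATRX KD, and Hoxa6 and Hoxb13 are highest in the latter.

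Hoxa9 and Hoxa10 had at most 1 count in the libraries labelled ATRX KD. Hoxa9 had 1 and 0 counts and Hoxa10 had 0 and 0, against 74 and 72, and 32 and 19, in WT. The ratio of Hoxa9 in WT to these libraries was 180, with an exact 95% interval of 31.8 to 7161 that covers counting error only, and Hoxa10 was at least 8.68-fold lower, with the floor of 3 counts set per library. Both were called (edgeR adjusted p = 0.000623 for Hoxa9 and 0.0034 for Hoxa10). Both genes lay under wide H3K27me3 peaks in WT, and the groups did not overlap.

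Hoxb7, a trunk gene of the paralog group of Hoxa7, was the 1 gene called among the 8 Hox genes of highest level. It had 296 and 229 WT counts and 120 and 313 counts in the libraries labelled ATRX KD, or 34.0 and 33.0 TPM against 23.6 and 25.7 TPM. The groups did not overlap, and Hoxb7 fell by 0.60 on the log2 scale, with an SE of 0.17 (edgeR adjusted p = 0.034). Hoxa6, which neighbours Hoxa7, had 12 and 14 WT counts and 25 and 60 in these libraries, and rose 2.62-fold, by a log2 fold change of 1.39 ± 0.37 (edgeR adjusted p = 0.0271). Hoxb13 rose from 8 and 1 to 33 and 72 counts, 9.44-fold, by 3.24 ± 0.62 on the log2 scale (edgeR adjusted p = 0.00792). The second WT library held only 1 count of it, and without 1 library its log2 fold change lay between 2.47 and 5.21. For both genes each library labelled ATRX KD stood above each WT library.

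In all, 2 of the 18 tested Hox genes were called higher and 3 lower, beside 15.2% and 17.8% of the 16785 genes tested, so the share of Hox genes called, 27.8%, was near that of all genes, 33%. When the first or the second WT library was left out, 12 Hox genes were called each time, beside 7942 and 8947 of all genes. An unadjusted p under 0.05 was found for 7 of them, against 44.4% of all genes. The groups did not overlap for 5 that were higher and 8 that were lower, beside 33.8% and 35.9% of all genes. The calls of Hoxa6 and Hoxb7 were lost with DESeq2 and without either of the libraries labelled ATRX KD. Of the other abundant genes, Hoxa7 had a log2 fold change of 0.59 ± 0.20 (edgeR adjusted p = 0.0564) and was called higher with DESeq2, with the replicate block, without a filter and without either WT library. Hoxb6 had a log2 fold change of -0.46 ± 0.16 (edgeR adjusted p = 0.0602) and Hoxa5 of -0.51 ± 0.23 (edgeR adjusted p = 0.128). Hoxb6 was called lower without a filter and without either WT library, and Hoxa5 without a filter and without the second WT library, its value lying between -0.80 and -0.15 without 1 library. Hoxb2, Hoxb4, Hoxb8 and Hoxb9 lay between -0.34 and 0.32, and Hoxb9 was above 0 on the TPM scale. Hoxa2, Hoxa3, Hoxa4, Hoxb3 and Hoxb5 lay between -0.40 and 0.37, and none was called. When the first or the second WT library was left out, Hoxb2 and Hoxb3 were called higher each time. Without the first alone Hoxa3 and Hoxb8 were called higher and Hoxa2 lower, and without the second alone Hoxb4 and Hoxb9 lower. Without a WT library the spread came from the libraries labelled ATRX KD alone, whose replicates differed less. Their chi-square per gene against sampling noise was 3.33, against 32.0 for the WT replicates. The comparisons share the WT libraries and are set side by side without a test of their difference.

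Peaks over the Hox clusters were short in the libraries labelled ATRX KD. EZH2 covered 8.004% and 9.18% of Hoxc and between 1.99% and 4.04% of the other clusters, and H3K27me3 covered between 1.06% and 5.82% of each. Over the 4 clusters this was 4.31% ± 0.52 for EZH2 and 2.83% ± 0.89 for H3K27me3 (SD, n = 2). The whole lists had the same form, with no peak wider than 5590 bp and 0.106% and 0.146% of the genome under EZH2 peaks and 0.232% and 0.204% under H3K27me3 peaks. An EZH2 peak lay at 17 and 18 of the 39 Hox starts, or 43.6% and 46.2%, against 19.4% and 24.8% of coding genes. An H3K27me3 peak lay at 11 and 8, or 28.2% and 20.5%, against 6.003% and 5.55%. The windows were lower than in WT at 30 genes for EZH2 and 27 for H3K27me3, where 40% and 14.3% of coding genes were. None was higher, where 0.269% and 0.374% were. A peak present in both WT libraries was in neither of these at 11 starts for EZH2 and 14 for H3K27me3, against 18.3% and 8.64% of coding genes, and none was gained, where 0.141% and 0.328% were. The shares lower and lost also count coding genes without a WT peak, which cannot lose one. In WT an EZH2 peak lay at 31 and 30 Hox starts and at 11096 and 10266 coding starts. For H3K27me3 these numbers were 27 and 28, and 3419 and 3607. Of the coding starts 8784 were lower for EZH2 and 3127 for H3K27me3, and 4021 and 1896 lost the peak. Hoxa10 was among both the 11 and the 14, and Hoxa9 among the 14, and the RNA of both was called lower. The genotype and the making of these lists cannot be told apart.

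ATRX peaks in the clusters were at most 1.784 kb wide. In WT the libraries had 8 and 1 in Hoxa and 8 and 1 in Hoxb, and in ATRXΔRBR 5 and 0 in Hoxa and 7 and 2 in Hoxb. None of the 4 ATRX lists had a peak in Hoxc or Hoxd, the clusters with no detected RNA. ATRX peaks covered 1.27% and 0.133% of the 4 clusters in WT, against 0.135% and 0.0776% of the genome. In ATRXΔRBR the shares were 1.49% and 0.197%, against 0.111% and 0.0786%. A peak lay within 2 kb of 4 and 1 Hox starts in WT and of 5 and 1 in ATRXΔRBR, between 2.56% and 12.8% of them, against 12.05% and 5.70% of coding genes in WT and 13.6% and 4.91% in ATRXΔRBR. Hoxb2 was the only start with a peak in all 4 lists. Of its window 5.82% and 11.9% lay under ATRX peaks in WT and 0.6998% and 4.40% in ATRXΔRBR, so that the groups did not overlap, as was so in this direction for 0.875% of coding genes. The direction depended on the threshold, since with a q-value of 0.01 or less Hoxb2 had an ATRX peak in neither WT library and in both ATRXΔRBR libraries. No window was higher in ATRXΔRBR, where 0.975% of coding genes were. No Hox start lost an ATRX peak from both libraries or gained one in both, beside 0.424% and 0.337% of coding genes. Of the 18 WT ATRX peaks in the clusters, both libraries pooled, 1 touched an H3K27me3 peak of WT and 7 an EZH2 peak. Of the 14 in ATRXΔRBR 0 touched an H3K27me3 peak and 5 an EZH2 peak. A peak in either library of the target in the same genotype was enough. The same count was not made over all ATRX peaks, so no background share is given. At a q-value of 0.01 or less no Hox start had an ATRX peak in WT.

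Partner and regulator genes were read from lists made by function, beside the 2.79% higher and 4.07% lower of all genes tested in ATRXΔRBR and the 15.2% and 17.8% in the libraries labelled ATRX KD. Of the 9 TALE homeodomain genes, which encode the Pbx, Meis and Pknox cofactors that bind DNA together with Hox proteins, 0 rose and 2 fell in ATRXΔRBR. Meis3 fell by 3.19 ± 0.58 on the log2 scale, from 41 and 29 counts in WT to 1 and 6 (edgeR adjusted p = 0.0167). Pknox2 fell (edgeR adjusted p = 0.0183), from 20 and 25 counts to 0 and 2, a ratio of WT to ATRXΔRBR of 20.8 with an exact 95% interval of 5.43 to 177. In the libraries labelled ATRX KD Meis3 rose, with 51 and 139 counts, by a log2 fold change of 1.11 ± 0.28 (edgeR adjusted p = 0.0211), and Pbx3 by 0.51 ± 0.13 (edgeR adjusted p = 0.0212). Pknox2 had 1 and 2 counts there and fell (edgeR adjusted p = 0.0039), at a ratio of 18.5 with an interval of 5.94 to 93.1. Meis3 was thus called in opposite directions in the 2 comparisons and Pknox2 lower in both, with the WT libraries shared. Of 12 MLL complex and H3K27 demethylase genes, 0 were called in ATRXΔRBR, and 4 rose and 1 fell in the libraries labelled ATRX KD, where 33% of all genes tested were called. There Kmt2a and Kmt2c, which encode MLL-family methyltransferases, had log2 fold changes of 0.80 ± 0.16 and 0.80 ± 0.14 and Dpy30, a core subunit, of -1.11 ± 0.12 (edgeR adjusted p = 0.0101, 0.00546 and 0.00105).

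Of 11 PRC2 genes, 1 rose and 0 fell in ATRXΔRBR. This was Ezh1, the paralog of Ezh2, at a log2 fold change of 1.03 ± 0.19 (edgeR adjusted p = 0.0161), and it rose in the libraries labelled ATRX KD too, by 1.26 ± 0.13 (edgeR adjusted p = 0.000926). There 3 PRC2 genes rose and 5 fell, beside 15.2% and 17.8% of all genes tested, the value farthest below 0 being that of the accessory subunit Aebp2 at -1.07 ± 0.12 (edgeR adjusted p = 0.00104). Phf19, a Polycomb-like subunit, was at 0.83 ± 0.13 (edgeR adjusted p = 0.00372). Of 16 PRC1 genes 2 rose and 4 fell in the libraries labelled ATRX KD. Of these Pcgf2 was at 0.80 ± 0.15, Phc3 at 0.72 ± 0.22 and Cbx7 at -0.56 ± 0.17 (edgeR adjusted p = 0.00771, 0.0454 and 0.0395). Of the 8 Evx and ParaHox genes, homeobox relatives of the Hox genes, 1 was tested and it was not called in either comparison, as was so for the 1 tested of 3 other coding genes inside the clusters.

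Noncoding genes inside the clusters were called in both directions. Of 43 of them 13 were tested in ATRXΔRBR, with 1 higher and 1 lower beside 2.79% and 4.07% of all genes tested, and 12 in the libraries labelled ATRX KD, with 0 higher and 2 lower beside 15.2% and 17.8%. Hotairm1, a noncoding transcript of the Hoxa cluster, had 37 and 23 WT counts and 53 and 89 ATRXΔRBR counts, and rose by a log2 fold change of 1.35 ± 0.32 (edgeR adjusted p = 0.0488). Gm53, at chr11:96251105-96264868 between Hoxb13 and Hoxb9, had 25 and 18 WT counts, 3 and 2 ATRXΔRBR counts and 0 and 2 counts in the libraries labelled ATRX KD, and fell by 2.91 ± 0.60 on the log2 scale in the former (edgeR adjusted p = 0.0275). In the latter it fell too (edgeR adjusted p = 0.00514), at a ratio of WT to these libraries of 26.5 with an exact 95% interval of 6.91 to 226. Hoxb3os, antisense to Hoxb2 and Hoxb3, fell by 1.45 ± 0.33 in the libraries labelled ATRX KD (edgeR adjusted p = 0.0146). The strand setting of the counting is not given in the sources used here, so reads of these transcripts and of Hox exons on the other strand cannot be told apart. Of 24 coding genes around the clusters, taken as 3 on each side of each, 19 were tested in each comparison. In ATRXΔRBR Calcoco1, beside Hoxc, rose by 1.04 ± 0.17 (edgeR adjusted p = 0.0109). Snx10, separated from Hoxa by Skap2, fell by 1.08 ± 0.21 (edgeR adjusted p = 0.0206). In the libraries labelled ATRX KD 2 rose and 2 fell. The 3 farthest from 0 there were Atp5g2 at -1.46 ± 0.46, Hnrnpa1 at -0.93 ± 0.11 and Hibadh at 0.43 ± 0.14 (edgeR adjusted p = 0.0472, 0.00155 and 0.0479).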

How the data were processed

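RNA-Seq reads were aligned to mm10 with STAR by the authors, who deposited RSEM estimated counts and TPM per gene and library. CUT&RUN reads were aligned with Bowtie2 and peaks called per library with MACS2 in broad mode. The deposited peak lists give a position, a fold enrichment ratio, a signal score and -log10 p-values and q-values as the authors' caller wrote them. Whether counting used strand is not given in the sources used here. The 4 IgG libraries were not analysed here.

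Rounding was applied to the estimated counts. Genes whose sum over the 4 libraries compared exceeded 10 entered edgeR 4.0.16 (quasi-likelihood, TMM, R 4.3.3) with Benjamini-Hochberg adjustment over all genes, and were called at an adjusted p under 0.05. DESeq2 1.42.0, other normalizations and filters, a fit of all 6 libraries, a replicate block and leaving out each library were alternatives. A fit without 1 library leaves 1 library in that group, so the other group alone gives the spread between replicates. On simulated data the test recovered 94% of 4-fold and 63% of 2-fold changes with 15 false calls among 15859 genes for ATRXΔRBR, and 97% and 79% with 3 among 16266 for the libraries labelled ATRX KD. The changed genes were simulated above a minimum mean level only, and Hoxa6 and Hoxb13 lay below it. The simulated spread was that estimated from these data. The recovery thus does not cover genes of such low level. Replicates were compared and no pair agreed within sampling noise. The study describes biological replicates, and the labels do not name separate cultures, so p-values measure the spread between these samples. Intervals and floors cover counting error only.

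Peak overlap was counted from 1 bp within 2 kb of the outermost GENCODE M21 start, over each cluster and over RefSeq promoters (GRCm38.p6). Fold changes were printed for the Hox genes called in either comparison and the 8 of highest mean TPM, and of every other list for called genes, at most the 3 of largest change. The Hox clusters were taken up, and the lists and tests chosen, with earlier results of these data known, although the rule for the members used names alone. Some items are not reported here.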

Additional observations from a re-analysis of the deposited data

How the results depend on the processing

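In ATRXΔRBR the number of genes called was 1979 without a filter, 597 with at least 10 counts in every library, 1738 with all 6 libraries in the fit and between 1055 and 1520 without 1 library, against 1119. The number of Hox genes called was 4 without a filter, where Hoxa9, Hoxb4 and Hoxb13 were added, and 1 to 2 without 1 library, the 1 being Hoxb4 (lower) without ATRXΔRBR replicate 2, where Hoxa10 was not called, while Hoxa10 and Hoxb4 were called without WT replicate 2. In the libraries labelled ATRX KD it was 8 without a filter, 2 with at least 10 counts in every library, where Hoxa9, Hoxa10 and Hoxb13 were not tested, and 3 to 12 without 1 library, while genes called ranged from 3193 to 8947. With the replicate number as a block 1071 and 5792 genes were called, with 1 and 6 Hox genes. The numbers did not pair the samples (correlation of deviations -0.712 and -0.119 over 10786 genes), and the crossed pairing, chosen after seeing the data, called 5585 and 6465 genes, with 6 and 8 Hox genes.

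Some log2 fold changes of genes that were not called changed sign when 1 library was left out. In ATRXΔRBR they ranged from -0.3564 to 0.3088 for Hoxa5 (0.0089 without ATRXΔRBR replicate 1), -0.4869 to 0.0313 for Hoxb2, -0.0964 to 0.1577 for Hoxb6 (-0.075 without WT replicate 2), -0.1691 to 0.0706 for Hoxb7 and -0.2986 to 0.1395 for Hoxb8 (0.09 without ATRXΔRBR replicate 1). In the libraries labelled ATRX KD they ranged from -0.6042 to 0.0199 for Hoxb4 and -0.0187 to 0.3933 for Hoxb8.

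The mean number of Hox starts with an ATRX peak was 2.5 in WT and 3 in ATRXΔRBR. It was 0 and 1.5 with peaks of q 0.01 or less, 0 and 0 with 50% of the window covered, and 1 to 4 and 1 to 5 by library. For the libraries labelled ATRX KD the EZH2 mean of 17.5 became 9 at q 0.01 and 1.5 with 50% covered. The H3K27me3 mean of 9.5 became 2.5 with a window of 1 kb, 2.5 at q 0.01 and 0 with 50% covered. The share of the 4 clusters under H3K27me3 peaks was 64.9% and 51.7% in WT and ATRXΔRBR with 10 kb added on each side and 61.6% and 47.7% at q 0.01. At q 0.01 the libraries labelled ATRX KD had 2.36% for EZH2 and 0.512% for H3K27me3. The peak lists do not record the depth of each library, which limits them, and 2 libraries per genotype limit every comparison; the cause of these shifts was not tested.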
